A study of Mus musculus with 3 samples.

Results

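Blood stem cell niche factors are the secreted and surface proteins with which stromal cells hold, feed and instruct haematopoietic stem cells and progenitors. The 7 described here, Cxcl12, Kitl, Angpt1, Il7, Csf1, Il34 and Vcam1, were taken by symbol from the 32285 genes of the count tables, and all 7 were found. They were followed through bone-lining cells (BLCs), the cells coating the bone surface, which were released with collagenase from the femora, tibias and iliac bones of wild-type mice. By flow cytometry, Alcam+Sca-1- cells without CD45, Ter119 and CD31 on their surface were collected, and 3 droplet single-cell RNA-seq libraries were made. The libraries form 1 group, replicates 1, 2 and 3, so every comparison is between cell populations within them and not between treatments. The labels do not say whether the libraries came from separate mice, so p-values measure the spread between these libraries, which may be technical.

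CXCL12 is a chemokine that retains stem cells and B cell progenitors in the marrow through CXCR4. KITL, also called stem cell factor, acts on KIT, and ANGPT1 acts on TEK (TIE2) of endothelial and haematopoietic cells. IL7 feeds lymphoid progenitors through IL7R, CSF1 and IL34 both bind CSF1R on cells of the macrophage and osteoclast lineage, and VCAM1 holds cells that carry the integrin of ITGA4 and ITGB1. CXCL12-abundant reticular (CAR) cells, which carry the leptin receptor gene Lepr, are known as the main marrow source of CXCL12 and KITL. The question followed here is how much of each factor lies in the other stromal, cartilage, mural and bone-forming cells that passed the same gate.

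After filtering, 18232 cells were analysed, 2476, 6363 and 9393 in replicates 1, 2 and 3, with median depths of 5614, 9704 and 5814 UMIs per cell. Of these, 16844 were mesenchymal, and 574, 210 and 350 cells of the 3 libraries were blood cells, which the gate should have removed. Cells were clustered with the 7 factors and 9 of their receptor genes kept out of the variable genes, and clusters were named by marker lists that hold none of the factors. The mesenchymal classes were CAR-like (769 cells), osteoblast-like (955), chondrocyte-like (6243), superficial cartilage-like (5383, led by Prg4 and Cilp), tendon-like (480), fibroblast-like (89) and pericyte-like (65), and 1 cluster of 2860 cells led by Cytl1, Ibsp, Prg4 and Col10a1 stayed without a name. Schwann-like (175) and endothelial-like cells (32) were also present. The class names rest on other transcripts of the same cells, which can vary with the factors, and names may differ from those of the study. The name tendon-like is weakly supported for 1 of its 2 clusters, which was led by Aspn, Mmp13 and Sfrp2. Transcripts of the gate gene Alcam were found in 6.32%, 9.52% and 6.30% of the mesenchymal cells, so the gate could not be followed at the transcript level.

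The libraries differed in what they held. CAR-like cells made up 23.5% of the cells of replicate 1 but 1.29% and 1.11% of those of replicates 2 and 3, whereas chondrocyte-like cells made up 3.03%, 43.0% and 36.6%. Replicate 1 also carried more Cxcl12 in cell types that should lack it. In erythroid-like cells Cxcl12 stood at 22.3 CPM (UMIs of the gene for every 1000000 UMIs that those cells held) in replicate 1, at 0.687 in replicate 2 and at 0 in replicate 3. In plasma cell-like cells, nearly all of them in replicate 1, it stood at 40.3 CPM, where 1 cell held 43 of 110 UMIs. Without their 6 cells with a UMI of the CAR-like marker Adipoq it was 25.5 CPM. Granulocyte-like cells of replicate 1 stood at 291 CPM, with 273 of 318 UMIs over the libraries in 1 cell. The 29.96 CPM of chondrocyte-like cells in replicate 1 lies under the 40.3 CPM of plasma cell-like cells, a level that rests on few cells. It lies above their 25.5 CPM without the Adipoq-positive cells and above the 22.3 CPM of erythroid-like cells. Whether such levels in replicate 1 are background was not tested.

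Against CAR-like cells, every factor was lower in every other class that could be tested. UMIs were summed per class and library and fitted with edgeR's quasi-likelihood test with the library as a block, and p-values were adjusted by Benjamini-Hochberg over 12919 genes. In chondrocyte-like cells 7 of 7 factors fell and none rose, while 22.7% of all genes fell (45.8% were called in either direction). The count was 7 of 7 lower in superficial cartilage-like cells too (22.4% of all genes fell, 43.4% in either direction), in osteoblast-like cells (15.1% and 30.3%), in tendon-like cells (12.5% and 23.3%) and in fibroblast-like cells (7.93% and 14.1%). These 5 comparisons share the CAR-like sums. Il7 passed the filter on low counts through CAR-like cells and not through these 5 classes, so a fall was its only open outcome in the fit. It was still called lower without that filter. The median log2 difference of the 7 factors was -5.45, -7.52, -7.76, -4.45 and -5.16 in the same order, against medians over all genes between -0.22 and 0.03. The median in osteoblast-like cells was -6.13 with Il7, which had no UMI there, set to its bound at 3 counts. The smallest loss was Il34 in tendon-like cells (log2 difference -3.42, SE 0.30, adjusted p = 1.1e-08, lower in 3 of 3 libraries) and, among factors with UMIs in both classes, the largest was Cxcl12 in chondrocyte-like cells (-11.34, SE 0.69, adjusted p = 6.3e-12, lower in 3 of 3). No library overlapped between CAR-like cells and any of the 5 classes for any factor. The share of all genes without such overlap was not counted, so this is a description.

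**Figure D1:**
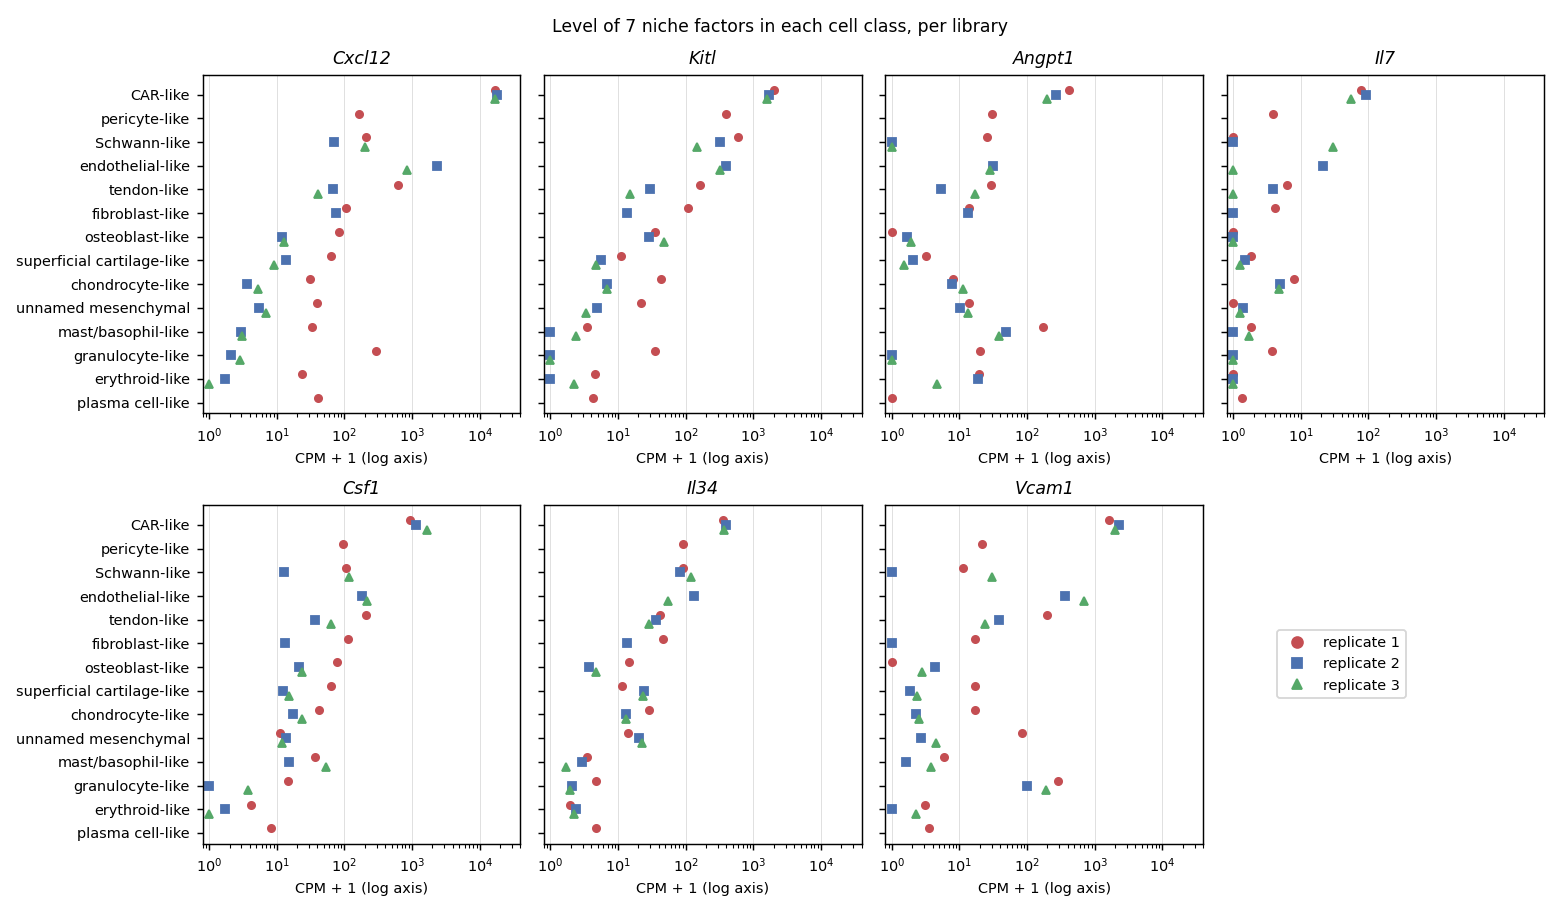
Level of each niche factor in each cell class. Each point is 1 library with at least 10 cells of the class, on a log axis of CPM + 1, so that a level of 0 stands at 1. CAR-like cells stand to the right of the mesenchymal classes in all 7 panels, and replicate 1 (circles) lies above replicates 2 and 3 for Cxcl12 in most of the other classes.

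Cxcl12 (chromosome 6, 117168535 to 117181367, plus strand, GRCm38, the build also called mm10) was the factor held most completely by CAR-like cells. Its level there was 16720, 18036 and 17073 CPM in replicates 1, 2 and 3 (17276 ± 681, mean ± SD, n = 3), and 99.4% ± 0.523 of cells thinned to 1000 UMIs held a Cxcl12 UMI, against 2.24% ± 2.91 of blood cells. Of the genes that mark this class, Lepr stood at 1402, 1062 and 1152 CPM and the adipokine gene Adipoq at 1420, 2622 and 2601 CPM. CAR-like cells held 96.8%, 93.4% and 93.9% of all Cxcl12 UMIs of the 3 libraries.

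Outside them, Cxcl12 was highest in the few endothelial-like cells, at 2369 and 833 CPM in replicates 2 and 3, where 1 cell held 65.7% of the 315 UMIs. Without the 3 endothelial-like cells that held an Adipoq UMI, the level was 160 and 340 CPM in these libraries. Tendon-like cells followed at 618, 66.9 and 39.2 CPM, and leaving out their 10 cells with an Adipoq UMI gave 583, 67.8 and 39.2. Schwann-like cells had 205, 70.0 and 204 CPM, and pericyte-like cells 161 CPM (95% Poisson interval 121 to 210, counting error only) in replicate 1, where 1 cell held 47.3% of the UMIs. The pericyte-like level was 87.0 CPM without cells holding an Adipoq UMI, and 1118 CPM on average over libraries without the cell filter. Osteoblast-like cells had 82.4, 10.9 and 11.8 CPM, superficial cartilage-like cells 63.2, 12.9 and 8.06, and chondrocyte-like cells 29.96, 2.66 and 4.25. Leaving out cells with an Adipoq UMI brought the osteoblast-like mean from 35.0 to 22.1 CPM. The spread over libraries of the last 3 classes overlapped, and so did that of tendon-like, Schwann-like and pericyte-like cells. In superficial cartilage, 1 cluster led by Cilp, Angptl7 and S100a4 stood apart with 135, 68.3 and 33.7 CPM of Cxcl12 in the 3 libraries.

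The 250 bases before the RefSeq start of Cxcl12 (chr6:117168285-117168534, plus strand, GRCm38.p6) are shown because its level spans the widest range of the 7 genes between CAR-like and cartilage cells. Capitals mark matches to the GC box GGGCGG on either strand.

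Cxcl12 upstream: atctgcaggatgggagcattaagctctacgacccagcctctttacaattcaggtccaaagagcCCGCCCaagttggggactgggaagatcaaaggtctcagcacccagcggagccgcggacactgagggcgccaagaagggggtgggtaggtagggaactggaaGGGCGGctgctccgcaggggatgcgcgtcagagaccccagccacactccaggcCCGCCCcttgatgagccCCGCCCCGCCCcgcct

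The window holds 5 GC boxes, a motif that 32.7% of 32851 such windows hold at least once. It holds no match to CCCNNGGG, the core bound by EBF factors (11.8% of windows), to GTAAACA of forkhead factors (3.17%), to the NF-kB motif (1.41%) or to TATAAA (12.4%), all searched on both strands.

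Kitl (chromosome 10, 100015630 to 100100416, plus strand) was less confined. In CAR-like cells its level was 2032, 1693 and 1602 CPM (1776 ± 227, n = 3). In pericyte-like cells it was 390 CPM (95% Poisson interval 326 to 462) in replicate 1, the only library with enough of these cells, so no test was possible. In Schwann-like cells it was 587, 315 and 146 CPM, and in endothelial-like cells 395 and 323 CPM in replicates 2 and 3. These 3 classes lay below CAR-like cells and above all remaining classes, with the exception of 160 CPM in tendon-like cells of replicate 1, and could not be ordered among themselves beyond their spread. Osteoblast-like cells held 34.3, 27.3 and 46.3 CPM, chondrocyte-like cells 41.5, 5.90 and 5.93 and superficial cartilage-like cells 10.2, 4.61 and 3.76.

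Kitl in pericyte-like and Schwann-like cells was spread over many cells. In replicate 1, 45 of 63 pericyte-like cells held a Kitl UMI (71.4%, exact 95% interval 58.7 to 82.1) at a median depth of 5121 UMIs, against 3.14% of blood cells at a median depth of 9042. After thinning to 1000 UMIs the shares were 27.4% (17 of 62 cells) and 1.35% (7 of 518). Schwann-like cells gave 40.4%, 29.2% and 20.0% in the 3 libraries after thinning, and osteoblast-like cells 6.90%, 2.89% and 4.44%, while blood cells of replicates 2 and 3 gave 0 of 199 and 0 of 322, which allows a share of up to 1.51% and 0.932%.

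The ratio of Kitl to Cxcl12 differed between the classes. CAR-like cells held 12.15, 9.39 and 9.38 Kitl UMIs per 100 Cxcl12 UMIs in the 3 libraries. In replicate 1 the blood cell classes had 11.75 (granulocyte-like), 8.18 (plasma cell-like), 7.69 (mast/basophil-like) and 15.96 (erythroid-like). These rest on single cells or few counts. Over the libraries 1 granulocyte-like cell held 273 of 318 Cxcl12 UMIs and 1 held 34 of 37 Kitl UMIs, 1 plasma cell-like cell held 6 of 9 Kitl UMIs and 1 erythroid-like cell 8 of 16, and the mast/basophil-like value came from 3 Kitl UMIs. Pericyte-like cells held 242 and Schwann-like cells 286 in the same library. Osteoblast-like cells held 41.7, 250 and 392 and chondrocyte-like cells 139, 222 and 139. These lay above the ratio of CAR-like cells in every library where the class held at least 10 Cxcl12 UMIs, the osteoblast-like values resting on 12, 16 and 13 of them. So did tendon-like cells (25.9, 42.6 and 35.3) and superficial cartilage-like cells (16.1, 35.8 and 46.7). Fibroblast-like and endothelial-like cells and the unnamed mesenchymal cluster lay above it too, so a higher ratio was not particular to a few classes. The part of free RNA in these counts was not tested.

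**Figure D2:**
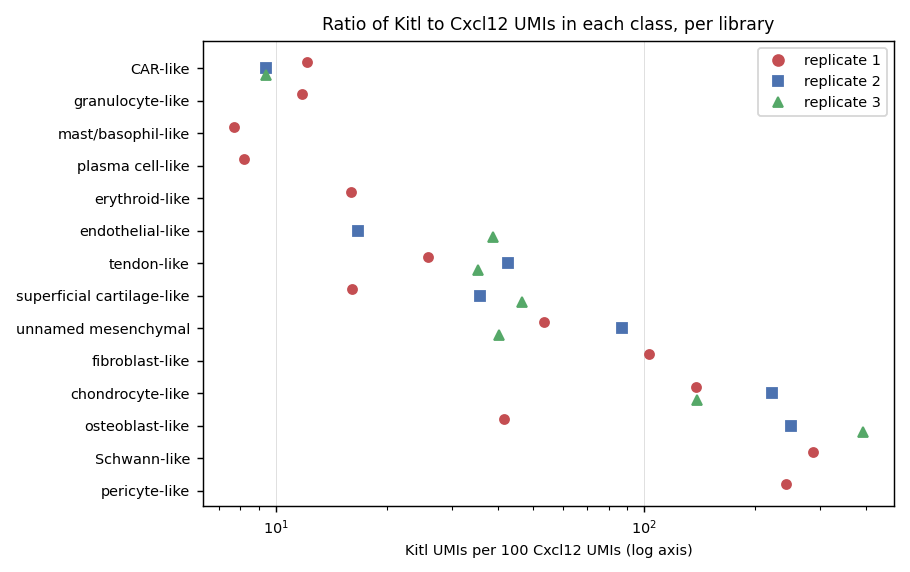
Kitl UMIs per 100 Cxcl12 UMIs in each class, on a log axis. Each point is 1 library in which the class held at least 10 cells and 10 Cxcl12 UMIs. The CAR-like and blood-cell points lie between 7.69 and 15.96, and the pericyte-like and Schwann-like points at 242 and 286.

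Each non-reticular mesenchymal class was also set against the unweighted mean, on the log scale, of the other named non-reticular mesenchymal classes with sums in at least 2 libraries. Pericyte-like, Schwann-like and endothelial-like cells, all higher in Kitl, were not part of it. Osteoblast-like cells passed with a mean of 36.0 CPM. This was above superficial cartilage-like (6.18) and chondrocyte-like cells (17.8) but below fibroblast-like (60.3) and tendon-like cells (67.5). For osteoblast-like cells the log2 difference of Kitl was 1.50 (SE 0.40, adjusted p = 0.0053, higher in 2 of 3 libraries by CPM). It did not pass without the replicate block (0.99, adjusted p = 0.22) or without replicate 3 (0.85, adjusted p = 0.23) or the cell filter (1.01, adjusted p = 0.055). In superficial cartilage-like cells Kitl fell (-2.23, SE 0.39, adjusted p = 9.9e-05, lower in 3 of 3 libraries), and it passed under all 13 other settings tried. In chondrocyte-like cells it also fell (-1.41, SE 0.39, adjusted p = 0.0064, lower in 3 of 3), but not past the threshold without the replicate block (adjusted p = 0.076) or without replicate 2 (0.21) or 3 (0.10).

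Angpt1 (chromosome 15, 42424723 to 42676977, minus strand) stood at 414, 271 and 196 CPM in CAR-like cells (293 ± 111, n = 3). The next class was one of blood cells, mast/basophil-like cells, with 173, 47.0 and 37.1 CPM. There 69 of 330 cells held a UMI of the gene, and the 4 richest cells held 40.6% of the UMIs. Pericyte-like cells had 29.3 CPM (95% Poisson interval 14.1 to 53.9, 10 UMIs), tendon-like cells 27.8, 4.27 and 16.1, and chondrocyte-like cells 6.91, 6.87 and 10.2. Osteoblast-like cells held 2 Angpt1 UMIs in 955 cells, and the level summed over libraries was 514 times higher in CAR-like cells (95% counting interval 142 to 4244).

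The Angpt1 of chondrocyte-like cells lay almost wholly in 1 cluster of 1772 cells, led by Rgs6, Lef1 and Efemp1. That cluster held 15.5, 40.4 and 43.1 CPM in replicates 1, 2 and 3. In replicates 2 and 3 it held 93.6% and 91.1% of the Angpt1 UMIs of the class with 24.7% and 30.7% of its cells. The cluster led by Matn3 and Fxyd2 had 0.42 and 1.46 CPM in these libraries and another chondrocyte-like cluster 0.99 and 1.10, from 8 to 17 UMIs each, and 3 further clusters had no Angpt1 UMI. The unnamed cluster led by Cytl1 and Ibsp had 12.8, 9.34 and 12.3 CPM. Clusters were formed from other genes of the same cells, so these levels are a description.

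Il7 (chromosome 3, 7569994 to 7613760, minus strand) was the factor with the fewest UMIs. CAR-like cells had 77.9, 89.6 and 53.6 CPM (73.7 ± 18.4, n = 3). Chondrocyte-like cells came next among the mesenchymal classes present in all 3 libraries, at 6.91, 3.997 and 3.80 CPM, from 3, 164 and 109 UMIs. Superficial cartilage-like cells had 0.824, 0.505 and 0.269 CPM and osteoblast-like cells no UMI in 955 cells. At the limit of 3 counts over the 3 libraries, the Il7 level of osteoblast-like cells was at least 69.8-fold lower than in CAR-like cells. In single cells an Il7 UMI was found in 2.67%, 4.32% and 2.65% of chondrocyte-like cells at median depths of 4103, 14724 and 8098 UMIs. Blood cells gave 0.697%, 0 and 0.286% at median depths of 9042, 16886 and 8260 UMIs, where 0 of 210 allows up to 1.43%. After thinning to 1000 UMIs the chondrocyte-like shares were 1.39%, 0.480% and 0.440%, and no blood cell of 518, 199 and 322 held an Il7 UMI, which allows up to 0.579%, 1.51% and 0.932%, so the thinned shares were not told apart at this depth.

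Most Il7 and most Angpt1 UMIs of chondrocyte-like cells lay in different clusters in replicates 2 and 3. The cluster led by Matn3, Fxyd2 and Ppa1 held 5.90 and 6.01 CPM of Il7 with 0.42 and 1.46 of Angpt1, whereas the cluster led by Rgs6 and Lef1 held 0.31 and 0.16 CPM of Il7, from 2 and 1 UMIs, with 40.4 and 43.1 of Angpt1. The former held 68.9% and 64.2% of the Il7 UMIs of the class with 33.2% and 29.2% of its cells. The Angpt1-rich cluster also held the highest Kitl level of the chondrocyte-like clusters, 16.7 and 13.4 CPM, and 45.0% and 48.8% of the Kitl UMIs of the class. Its Csf1 was not set apart in this way, with 17.8% and 28.7% of the UMIs of the class.

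**Figure D3:**
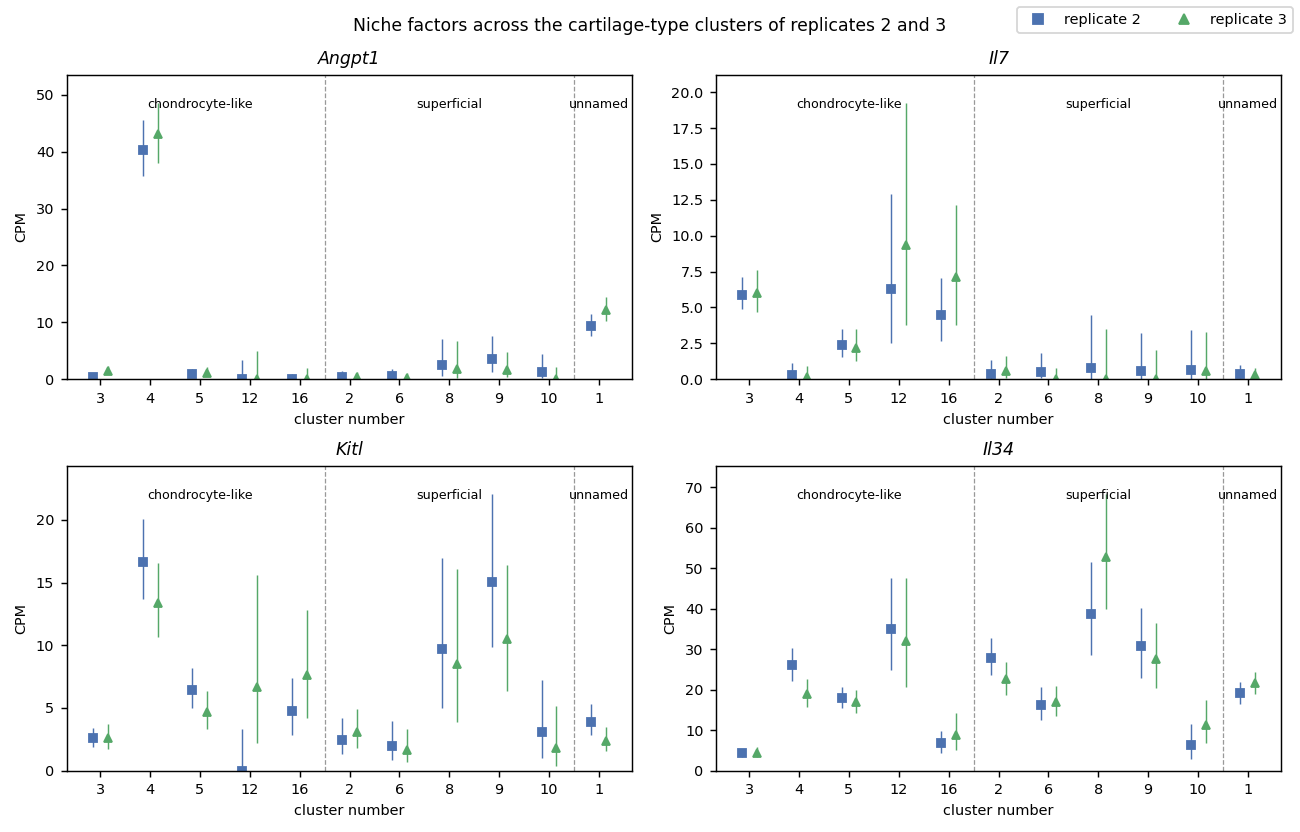
Angpt1, Il7, Kitl and Il34 levels (CPM) in the clusters of chondrocyte-like and superficial cartilage-like cells and in the unnamed mesenchymal cluster, for replicates 2 and 3, which hold most of these cells. Points are libraries and bars exact 95% Poisson intervals, which cover counting error only; the shallow chondrocyte-like cluster 22, with no UMI of the 4 genes in these libraries, is left out. Angpt1 is high in cluster 4 at 40.4 and 43.1 CPM, where Il7 is 0.31 and 0.16.

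Against superficial cartilage-like cells, chondrocyte-like cells had 3 of the 7 factors called, while 35.8% of all genes were called (18.8% higher and 16.9% lower). Il7 was higher (log2 difference 3.05, SE 0.38, adjusted p = 1.9e-06, higher in 3 of 3 libraries) and so was Angpt1 (3.03, SE 0.35, adjusted p = 3.3e-07, 3 of 3), while Cxcl12 fell (-1.69, SE 0.51, adjusted p = 0.012, lower in 3 of 3). The Il7 difference lay between 2.69 and 3.28 and passed under all 13 other settings. The Angpt1 difference was 0.62 (adjusted p = 0.15) with coarser clusters. This comparison was added after the data had been seen, because osteoblast-like cells hold no Il7 UMI and an Il7 contrast that includes them depends on the prior count.

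Csf1 (chromosome 3, 107741048 to 107760469, minus strand) was found in every mesenchymal class that was tested. CAR-like cells had 948, 1151 and 1666 CPM (1255 ± 370, n = 3). Endothelial-like cells had 182 and 215 CPM in replicates 2 and 3, tendon-like cells 211, 35.6 and 62.3, pericyte-like cells 93.8 (95% Poisson interval 64.1 to 132) in replicate 1 and Schwann-like cells 104, 11.7 and 117. Without the cell filter the pericyte-like mean was 192.5 CPM. Osteoblast-like cells had 75.5, 20.5 and 22.7 CPM, superficial cartilage-like cells 62.1, 11.2 and 14.2 and chondrocyte-like cells 41.5, 16.5 and 22.5. The ranges of the last 3 classes overlapped, and none of them passed the test against the mean of the other non-reticular classes (log2 differences 0.01, -0.67 and -0.61, SE 0.40, 0.33 and 0.35, adjusted p = 1.00, 0.13 and 0.18). Their 95% intervals were not computed, so a like level is not shown. Without replicate 1 the fall in superficial cartilage-like cells passed (-0.90, adjusted p = 2.5e-06).

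The 250 bases before the RefSeq start of Csf1 (chr3:107760470-107760719, minus strand, GRCm38.p6) are shown beside those of Cxcl12 because Csf1 was the less confined of both genes. Capitals mark an NF-kB match that overlaps an EBF core match, followed by 2 GC boxes.

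Csf1 upstream: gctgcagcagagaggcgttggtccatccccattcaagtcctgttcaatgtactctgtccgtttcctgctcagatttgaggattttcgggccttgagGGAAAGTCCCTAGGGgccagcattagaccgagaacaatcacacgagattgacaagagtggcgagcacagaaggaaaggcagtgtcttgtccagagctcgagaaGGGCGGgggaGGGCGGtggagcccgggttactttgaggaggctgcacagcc

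A match is a description of these letters only. Of the 7 genes 3 had an entry in the RefSeq promoter table, Cxcl12, Kitl and Csf1, and the Kitl window is not shown because its start differs from that of the gene annotation.

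Il34 (chromosome 8, 110741829 to 110805924, minus strand), the other ligand of CSF1R, was even between libraries in CAR-like cells, at 358, 393 and 372 CPM (375 ± 17.7, n = 3). Schwann-like cells had 90.4, 81.6 and 117 CPM, pericyte-like cells 90.8 (95% Poisson interval 61.7 to 129) and tendon-like cells 41.0, 35.6 and 27.7. In superficial cartilage-like cells replicate 1 was the lowest library, at 10.4 CPM against 23.3 and 22.2. Chondrocyte-like cells had 27.7, 12.1 and 12.1 CPM and osteoblast-like cells 13.7, 2.73 and 3.63, both highest in replicate 1. Osteoblast-like cells were lower than the mean of the other non-reticular classes (log2 difference -2.28, SE 0.50, adjusted p = 0.0011, lower in 3 of 3 libraries), and this passed under all 13 other settings. Among the chondrocyte-like clusters, leaving aside 1 shallow cluster without an Il34 UMI in replicates 2 and 3, Il34 varied from 4.23 and 4.38 CPM in the cluster led by Matn3, Fxyd2 and Ppa1 to 34.8 and 32.0 in the cluster with Prkg2 and Ephb2 among its leading genes in replicates 2 and 3.

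Vcam1 (chromosome 3, 116109949 to 116129688, minus strand) stood at 1631, 2285 and 2015 CPM in CAR-like cells (1977 ± 329, n = 3). Endothelial-like cells had 364 and 699 CPM in replicates 2 and 3. Granulocyte-like cells had 283, 99.5 and 187 CPM, and 105 of 184 of them held a UMI, the 2 richest holding 9% of the total. For Cxcl12 those 2 cells with the most UMIs held 94.7% of the class, so the Vcam1 of granulocyte-like cells was spread over cells and their Cxcl12 was not. Tendon-like cells had 197, 37.0 and 23.1 CPM, all above the other tested non-reticular classes of the same library. Osteoblast-like, superficial cartilage-like and chondrocyte-like cells had at most 3.41 CPM in replicates 2 and 3 and at most 16.1 in replicate 1.

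Among the non-reticular classes tested, tendon-like cells had the most factors raised. Pericyte-like, Schwann-like and endothelial-like cells were not part of this contrast. There 6 of 7 factors were higher than the mean of the other non-reticular classes and none was lower, while 12.4% of all genes were higher and 6.5% lower (18.9% in either direction). The differences were 3.75 for Vcam1 (SE 0.51, adjusted p = 7.5e-06, higher in 3 of 3 libraries), 2.55 for Cxcl12 (SE 0.39, adjusted p = 3.0e-05, 3 of 3), 1.95 for Angpt1 (SE 0.43, adjusted p = 0.0020, 2 of 3), 1.21 for Kitl (SE 0.37, adjusted p = 0.022, 2 of 3), 1.09 for Csf1 (SE 0.33, adjusted p = 0.023, 3 of 3) and 1.03 for Il34 (SE 0.31, adjusted p = 0.022, 3 of 3). The count was 3 of 7 with DESeq2 and without the cell filter, and 4 without the replicate block. Vcam1 and Cxcl12 passed in every setting tried. Kitl (0.73, adjusted p = 0.10) and Angpt1 (1.83, 0.063) did not pass without replicate 1, Il34 did not pass without replicate 2 (1.23, adjusted p = 0.063), and neither Csf1 (1.09, 0.086) nor Il34 (1.10, 0.087) passed without replicate 3. The 2 tendon-like clusters differed. The cluster led by Aspn, Mmp13 and Sfrp2, whose tendon-like name is weakly supported, held 793, 123.1 and 50.2 CPM of Cxcl12 and 262, 57.4 and 35.8 of Vcam1. The cluster led by Tnmd, Postn and Chodl, with the tenocyte gene Tnmd, held 117, 5.94 and 19.4 CPM of Cxcl12 and 12.8, 14.8 and 0 of Vcam1. Both genes were thus lower in the cluster with Tnmd in each library. Its Cxcl12 lay below that of osteoblast-like cells in replicate 2 (10.9 CPM) and above it in replicates 1 and 3. Its Vcam1 lay below that of chondrocyte-like cells in replicates 1 (16.1 CPM) and 3 and above it in replicate 2. The rise of the class in these 2 genes was therefore not shown for the cluster with Tnmd, which was not tested alone. Lepr stood at 105, 41.3 and 36.9 CPM and Adipoq at 7.28, 1.42 and 0 CPM in the tendon-like class, and the part of CAR-like RNA in its levels was not tested beyond leaving out the Adipoq-positive cells.

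The other non-reticular classes had fewer factors called against the mean of the rest. In chondrocyte-like cells 2 of 7 were higher and 2 lower, while 38.8% of all genes were called (23.8% higher, 15% lower). These were Il7 (3.25, SE 0.61, adjusted p = 2.4e-04, a value that depends on the prior count as said above) and Angpt1 (1.65, SE 0.36, adjusted p = 7.9e-04) above, and Kitl, given above, and Cxcl12 (-2.52, SE 0.49, adjusted p = 2.4e-04) below. The Angpt1 call was lost in 4 settings, without replicate 3 (1.25, adjusted p = 0.066), with doublets kept and with coarser or finer clusters, and without the cell filter its sign turned (-0.0201, adjusted p = 1.0). Vcam1 did not pass there (-1.50, SE 0.69, adjusted p = 0.089) but did without replicate 1 (-1.71, adjusted p = 3.4e-05). In superficial cartilage-like cells 2 were lower, Kitl and Angpt1 (-2.14, SE 0.59, adjusted p = 0.0081), while 30.3% of all genes were called (11.5% lower). Without replicate 1, 5 of 7 factors were called there, while over all genes 5957 were called in place of 3908. Il34 was then higher (1.28, adjusted p = 1.1e-07), and Csf1 and Vcam1 (-1.93, adjusted p = 4.4e-05) were lower. Without replicate 2 (adjusted p = 0.077) or 3 (0.11) Angpt1 did not pass. In osteoblast-like cells Kitl was higher and Il34 and Angpt1 (-2.45, SE 0.90, adjusted p = 0.038) lower, while 34.4% of all genes were called (19.8% higher, 14.6% lower), and Angpt1 did not pass when any 1 library was left out (adjusted p = 0.10, 0.12 and 0.088). In fibroblast-like cells, present in 2 libraries with 66 and 18 cells, 0 of 7 were called by edgeR, also at an unadjusted p under 0.05, and 0 of 7 by DESeq2, while 10.2% of all genes were called (6.07% higher, 4.09% lower).

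**Figure D4:**
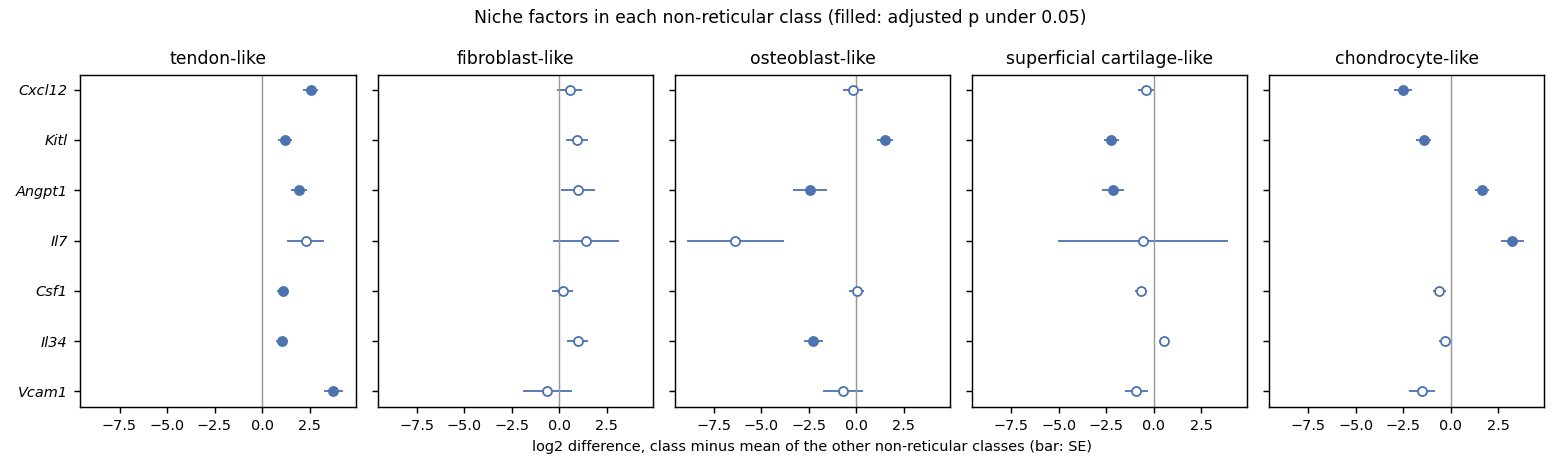
Log2 difference of each factor between 1 non-reticular class and the mean of the other non-reticular classes. Points are edgeR estimates and bars their standard errors, and filled points passed an adjusted p of 0.05. In tendon-like cells 6 of 7 points are filled and lie above 0, and in fibroblast-like cells none is filled.

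The share of the transcripts held by a class depends on its size as well as its level. In replicate 1 CAR-like cells held from 78.6% (Angpt1) to 96.8% (Cxcl12) of the UMIs of a factor. In replicates 2 and 3 chondrocyte-like cells held 72.9% and 79.0% of the Il7 UMIs, against 20.4% and 14.5% in CAR-like cells. They also held 44.0% and 50.4% of Angpt1, 40.9% and 36.7% of Csf1, 38.9% and 31.8% of Il34 and 18.0% and 18.0% of Kitl UMIs. Chondrocyte-like cells made up 43.0% and 36.6% of the cells of these libraries. Their Il7 share lay above this in both, and their Angpt1 share was near it in replicate 2 and above it in replicate 3. Their Csf1 share was near their share of cells, and their Il34 and Kitl shares lay below it. In replicate 2 chondrocyte-like cells held 41033701 UMIs, where all barcodes of the library held 79905165. Their Angpt1 and Csf1 shares in replicate 2 thus lay below their share of UMIs. The superficial cartilage-like class added 25.3% and 30.3% of Il34 with 27.9% and 32.3% of the cells. The unnamed cluster added 15.3% and 24.1% of Angpt1, below its share of cells in replicate 2 and above it in replicate 3. Osteoblast-like cells held at most 5.41% of any factor, namely Kitl in replicate 3. UMIs per cell differ between classes, so a share counts transcripts captured and not protein, and the makeup of a library after the gate is not that of the bone.

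**Figure D5:**
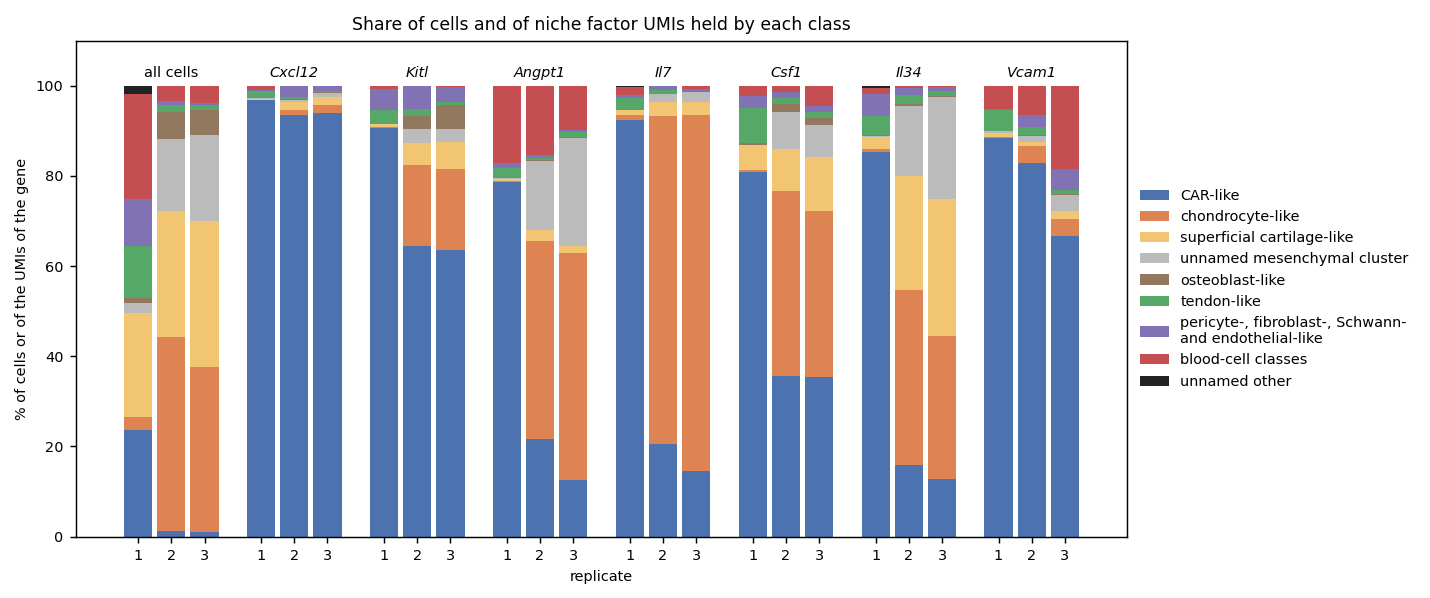
Share of all analysed cells (left) and of the UMIs of each factor held by each class, 3 stacked bars per item for replicates 1, 2 and 3. CAR-like cells are 1.29% and 1.11% of the cells of replicates 2 and 3 and hold 93.4% and 93.9% of the Cxcl12 UMIs, while chondrocyte-like cells hold 72.9% and 79.0% of the Il7 UMIs.

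Receptors of the factors were found in blood, endothelial and mesenchymal classes. Among the blood cells left in the gate, mast/basophil-like cells had Csf1r at 56.2 ± 2.28 CPM, Cxcr4 at 57.2 ± 17.2, Kit at 48.3 ± 21.1 and Il7r at 34.7 ± 20.2 (mean ± SD, n = 3), and erythroid-like cells had Itga4 at 198 ± 33.5. Tek was highest in endothelial-like cells (133 ± 55.1, n = 2). Kit was also found in CAR-like cells themselves, at 53.0 ± 13.2 CPM. Ackr3, a scavenging receptor of CXCL12, was highest in superficial cartilage-like cells at 172 ± 54.5 CPM, and Ptprz1, a receptor that also binds IL34, in osteoblast-like cells at 293 ± 354 and Schwann-like cells at 253 ± 76.0. Of the 9 receptor genes 7 entered the fit. Compared with CAR-like cells, 1 of 7 rose and 3 fell in chondrocyte-like cells, where 23.1% of all genes rose and 22.7% fell. In each of the other 4 classes 2 rose and 1 fell. Over all genes, 21% rose and 22.4% fell in superficial cartilage-like cells, and 15.1% and 15.1% in osteoblast-like cells. The shares were 10.9% and 12.5% in tendon-like and 6.15% and 7.93% in fibroblast-like cells. Against CAR-like cells Kit fell in all 5 classes (adjusted p at most 2.6e-04), to mean levels of at most 1.29 CPM. At these levels it passed the filter on low counts through CAR-like cells and not through the 5 classes. A fall was thus the only open outcome, and it is a description. Ackr3 was 6.74 higher in superficial cartilage-like cells (SE 0.53, adjusted p = 3.2e-10) and Ptprz1 7.18 higher in osteoblast-like cells (SE 0.66, adjusted p = 1.6e-08), both in 3 of 3 libraries.

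A list of 30 other support ligands and adhesion genes, 28 of them tested, also stood lower outside CAR-like cells. In chondrocyte-like cells 20 of 28 fell and 6 rose, where 22.7% of all genes fell and 23.1% rose. In superficial cartilage-like cells 18 fell and 6 rose (22.4% and 21% of all genes), in osteoblast-like cells 16 and 2 (15.1% and 15.1%), in tendon-like cells 15 and 2 (12.5% and 10.9%) and in fibroblast-like cells 11 and 1 (7.93% and 6.15%). Median differences, with genes that had no UMI on one side set to their bound, lay between -2.67 and -1.12, against -0.22 to 0.03 over all genes. Ccl2, a chemokine for monocytes, fell by 10.28, 8.40, 10.16 and 6.56 on the log2 scale in the first 4 of these classes (adjusted p at most 1.8e-06). Other genes rose. Ptn, a growth factor that acts on stem cells, was 8.34 higher in tendon-like cells (SE 0.47, adjusted p = 1.5e-11, 768 against 2.43 CPM) and 7.54 higher in fibroblast-like cells (SE 0.52, adjusted p = 5.0e-10). Among the non-reticular classes, the adhesion gene Cdh2 was 6.77 higher in osteoblast-like cells (SE 0.22, adjusted p = 1.8e-16, 3 of 3 libraries), Fgf2 was 3.08 higher in superficial cartilage-like cells (SE 0.20, adjusted p = 6.2e-11) and Igf1 was 4.78 higher in tendon-like cells (SE 0.31, adjusted p = 5.6e-11).

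Genes whose level followed each factor most closely were sought over 48 sums of 19 mesenchymal clusters, by Pearson's r of log2(CPM + 10). The sums share libraries and clusters, so r is a description. Cxcl12 was followed most closely by Psmb8 (r = 0.955), Hp (0.938) and Trf (0.932), and Kitl by Cxcl12 (0.919), Acss3 (0.918) and Slfn5 (0.897). Among the nearest genes of Angpt1 were Sp100 (0.886) and Slfn5, and among those of Vcam1 Casp1 (0.939) and Gdpd2. Il7 went with Il1rn (0.951), H2-Q10 and Cybb, Csf1 with Ccl2 (0.907), Cxcl12 and Nfkbie, and Il34 with Gas6 (0.858), Wdr86 and Sh2d4b. When both CAR-like clusters were left out, leaving 44 sums of 17 clusters, most of these genes changed. Kitl was then followed by Itga7 (0.879), Rtn4rl1 (0.826) and Acvr2b (0.820), Angpt1 by Csrp2 (0.669), Fzd7 and Wdr13, Vcam1 by Adgrf5 (0.777), Gdpd2 and Porcn, Csf1 by Flywch1 (0.8005), Ece1 and Ankrd12, and Il34 by Arhgef12 (0.795), Esyt2 and Fbxo11. Cxcl12 was again followed by Psmb8 (0.817), then Rab8b and Cped1. Il7 reached at most 7.80 CPM in these clusters, under the 10 CPM added before the logarithm, so its nearest genes are not named.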

How the data were processed

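The authors aligned reads to mm10 and counted UMIs with Cell Ranger 7.1.0, per the labels, and deposited raw UMI counts per gene and barcode of 3 Alcam+Sca-1- BLC libraries, with totals of 20985636, 79905165 and 69890252 UMIs. The members, gene lists, markers and alternatives were chosen with earlier results of these data known. From the deposited counts, a barcode was kept if it held 200 or more genes and no more than 20% mitochondrial UMIs, and as many top Scrublet scores as 0.8% per 1000 cells were removed as doublets. Leiden clustering at resolution 1 (scanpy 1.11.5, leidenalg 0.10.2) used 2000 variable genes, 30 principal components and 15 neighbours, without the factors and receptors. A cluster took the class of its highest marker list, unless fewer than 3 markers were detected or another class led it. The named-gene rule was all 7 factors, at most 3 called genes per list and comparison, and the 3 nearest genes of each factor, of which some are not reported here. CPM came from UMIs summed per class and library with at least 10 cells. The sums entered edgeR 4.0.16 (R 4.3.3, TMM, filterByExpr, quasi-likelihood test with class and library, threshold 0.05); SE is the log2 difference over the square root of F. Same-numbered sums come from the same library, and their deviations from the class means correlated at 0.09 to 0.40 (median 0.19, 40 pairs). The test was also run on simulated counts with changes in only 1 class and no library effect. These differ from the data, so nothing is concluded from that run here. Libraries shared 5, 9 and 28 barcodes. Gene positions are from GENCODE M21 and upstream sequences from RefSeq. DESeq2 1.42.0, other filters, other clusterings and libraries left out were tried as alternatives. Intervals cover counting error only, at the 95% level, and a count of 0 allows up to 3 counts.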

Additional observations from a re-analysis of the deposited data

How the results depend on the processing

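All 7 factors stayed lower than in CAR-like cells in each of the 5 classes under every alternative that could be fitted, including each library left out. The counts of called genes depended on which libraries entered. With 1 library left out they ranged from 3407 to 5693 for chondrocyte-like, 3440 to 5035 for superficial cartilage-like, 1980 to 4337 for osteoblast-like and 1582 to 3166 for tendon-like against CAR-like cells. Against the other non-reticular classes they ranged from 2348 to 7410, 1964 to 5957, 2227 to 6079 and 1233 to 4170 in the same order, and from 1452 to 7696 for chondrocyte-like against superficial cartilage-like cells. Niche factors called against the other non-reticular classes then numbered 2 to 5 in chondrocyte-like, 1 to 5 in superficial cartilage-like, 1 to 2 in osteoblast-like and 4 to 5 in tendon-like cells. Tendon-like cells had 3 called with DESeq2 and 3 without the cell filter, superficial cartilage-like cells had 1 at resolution 0.5, and chondrocyte-like against superficial cartilage-like cells gave 3075 called genes without the cell filter.

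Without the replicate block, the library pairing ignored, 3, 2, 2, 4 and 0 factors were called in chondrocyte-like, superficial cartilage-like, osteoblast-like, tendon-like and fibroblast-like cells against the rest, and 7 in each against CAR-like cells. Some differences against the rest changed sign. Csf1 in osteoblast-like cells, 0.01 as reported, became -0.0474 with no filter on low counts, -0.36 with no replicate block, -0.0643 with no cell filter and -0.0313 with doublets kept, and with 1 library left out ranged from -0.20 (without replicate 2) to 0.253. Cxcl12 in osteoblast-like cells became 0.0548 at resolution 2 and 0.0134 with all genes allowed as variable, and with 1 library left out ranged from -0.289 to 0.16 (without replicate 1). Vcam1 in fibroblast-like cells became 0.34 with no replicate block and 0.51 with doublets kept, and Cxcl12 there -0.20 with no cell filter. With 1 library left out, Il7 in superficial cartilage-like cells ranged from -0.493 to 0.0876 (without replicate 1) and Il34 in chondrocyte-like cells from -0.141 to 0.0864 (without replicate 2). These were not called as reported. Of called differences, Angpt1 became -0.0201 in chondrocyte-like cells with no cell filter and 0.0548 in superficial cartilage-like cells at resolution 0.5. The cause was not tested. Fibroblast-like comparisons could not be made with at least 30 cells per sum or without replicate 1 or 2. Levels of single classes moved by over 1.5 times in places: mean Cxcl12 went from 12.3 to between 19.1 and 21.3 CPM in chondrocyte-like cells under other clusterings, with doublets kept or without the cell filter, and with doublets kept from 241 to 455 CPM in tendon-like and from 89.7 to 163 CPM in fibroblast-like cells, while Vcam1 in fibroblast-like cells went from 7.95 to 41.7 CPM. Without the cell filter, Vcam1 in pericyte-like cells went from 20.5 to 417 CPM. Mean Angpt1 in superficial cartilage-like cells, 1.27 CPM, was 2.31 to 4.49 CPM under 4 settings and in osteoblast-like cells 1.85 in place of 0.53 CPM with doublets kept. Il7, with a mean of at most 4.90 CPM in the non-reticular classes tested and no UMI in osteoblast-like cells, is limited by depth.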
